A study of Homo sapiens with 18 samples.

Results

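The unfolded protein response and the integrated stress response were described here through 33 genes, chosen by symbol from the 58735 genes of the count table. The ATF4 arm held 16 genes and the endoplasmic reticulum (ER) chaperone arm 17. Every one of the 33 was found in the table and passed the low-count filter of the test. The cells were of the human cell line OCI-Ly18, established from a diffuse large B-cell lymphoma and carrying green fluorescent protein, and had grown under the skin of immunodeficient NSG mice. In the tazemetostat group (CART19-tazemetostat, mice M_767, M_768 and M_774), the EZH2 inhibitor tazemetostat (EPZ6438) was given by gavage at 150 mg/kg each day for 14 days, starting 3 days after implantation. The vehicle group (CART19-vehicle, mice M_766, M_769 and M_770) received vehicle over the same days. Mice of both groups then received CART19 cells, which are chimeric antigen receptor T cells, and the fluorescent tumour cells were sorted out 11 days later. No group without CART19 cells was analysed here, and the labels do not say if dosing went on after the T cells were given. A single line in a host without its own lymphocytes limits the model to these lymphoma cells and the infused T cells. Each mouse gave 3 libraries, A, B and C, which were summed, so n = 3 mice per group.

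Mouse sums held 59132193 to 69816184 counts in the tazemetostat group and 55712115 to 66053406 in the vehicle group. Levels are CPM, read counts put on the same library size by TMM scaling, and fold changes are tazemetostat over vehicle on the log2 scale. Library M_768_C of the tazemetostat group stood apart, with a TMM factor of 0.901 where the other 17 libraries had 0.978 to 1.03, and member values that move by over 1.5 times without it are also given without it. The 7 B-cell markers summed to 2856 to 2897 CPM in tazemetostat mice and 2736 to 3287 CPM in vehicle mice. Of 10 T-cell markers, CD3D and CD3G were at 0 in all 6 mice, and the list summed to 63.0 to 72.3 CPM in tazemetostat mice and 47.6 to 63.4 CPM in vehicle mice, most of it from CD247. The 7 myeloid markers summed to 1.0 to 1.44 CPM in tazemetostat mice and 1.08 to 1.33 CPM in vehicle mice, with S100A8, S100A9 and FCGR3A at 0 throughout. In bulk RNA of sorted cells, fewer cells expressing a gene and less RNA per cell cannot be told apart.

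The unfolded protein response is the set of pathways by which a cell adjusts to misfolded protein in the ER. Its sensors are PERK (gene EIF2AK3), IRE1 (ERN1) and ATF6. IRE1 splices the messenger of the transcription factor XBP1, and ATF6 is cut to release a transcription factor; both induce chaperones, folding enzymes and the machinery of ER-associated degradation. PERK phosphorylates the initiation factor eIF2, as do GCN2 (EIF2AK4) on amino acid shortage, PKR (EIF2AK2) on double-stranded RNA and HRI (EIF2AK1) on haem shortage or mitochondrial stress. This shared step, the integrated stress response, lowers general translation while the messenger of ATF4 is translated more, so ATF4 activity is set in large part after transcription. ATF4 with its C/EBP partners induces genes for amino acid supply, serine synthesis and redox balance, and, on prolonged stress, the pro-death factor CHOP (DDIT3). B cells that differentiate toward plasma cells use the XBP1 branch to expand their ER.

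Elements known from these responses were searched in the promoters of both arms. The sequences below show matches beside the start of members whose values follow. RefSeq windows on GRCh38.p14, from 250 bases before to 50 after the start, were tabulated for 30 of the 33 members and for 27305 genes in all. The C/EBP-ATF response element (TGATGNAA, either strand), which ATF4 dimers bind, lay in 4 of 14 tabulated promoters of the ATF4 arm (ASNS, CEBPG, CHAC1 and SLC3A2), in 1 of 16 of the ER chaperone arm (HERPUD1) and in 4.46% of all genes. The ER stress response element (ERSE, CCAAT, then 9 bases, then CCACG, either strand), a site of ATF6 and NF-Y, lay in 0 of 14 ATF4-arm promoters, in 5 of 16 ER-arm promoters (CALR, CRELD2, HSP90B1, HSPA5 and PDIA6) and in 0.0916% of all genes. ERSE-II (ATTGG, then 1 base, then CCACG, either strand) lay in 0 of 14, in 3 of 16 (HERPUD1, HYOU1 and SDF2L1) and in 0.0696%. The unfolded protein response element (TGACGTGG, either strand), known as an XBP1 site, lay in 0 of 14, in 1 of 16 (HYOU1, where it overlaps an ERSE-II) and in 0.927%. A match is a description of the letters, not evidence of binding. The members are known genes of these responses, so a share above that of all genes was built into their choice. Most ATF4-arm promoters held none of the elements. SHMT2, DERL3 and SLC7A11 were not among the tabulated promoters. The fixed letters of each element are in capitals, each sequence is written 5′ to 3′ on the strand of its gene, and an element on the opposite strand appears as its reverse complement.
ASNS response element (chr7:97872449-97872496, minus strand, 68 bases before the start): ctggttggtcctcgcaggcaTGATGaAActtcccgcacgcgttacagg
CEBPG response element (chr19:33374051-33374098, plus strand, 42 bases before the start): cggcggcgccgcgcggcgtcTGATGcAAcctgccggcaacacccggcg
HERPUD1 response element, opposite strand (chr16:56931946-56931993, plus strand, 176 bases before the start): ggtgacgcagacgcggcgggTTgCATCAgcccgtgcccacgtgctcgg
HERPUD1 ERSE-II (chr16:56932005-56932055, plus strand, 117 bases before the start): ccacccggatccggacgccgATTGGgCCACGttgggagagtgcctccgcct
HSPA5 ERSE (chr9:125241371-125241429, minus strand, 66 bases before the start): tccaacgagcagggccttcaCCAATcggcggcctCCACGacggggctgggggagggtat
PDIA6 ERSE (chr2:10812833-10812891, minus strand, 86 bases before the start): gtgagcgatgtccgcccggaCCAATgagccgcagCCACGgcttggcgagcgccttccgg
CALR ERSE, opposite strand (chr19:12938364-12938422, plus strand, 225 bases before the start): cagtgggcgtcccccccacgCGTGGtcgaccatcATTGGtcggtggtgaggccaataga
SDF2L1 ERSE-II, opposite strand (chr22:21642094-21642144, plus strand, 188 bases before the start): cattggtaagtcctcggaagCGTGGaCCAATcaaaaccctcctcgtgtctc
HYOU1 ERSE-II, opposite strand (chr11:119057254-119057304, minus strand, 79 bases before the start): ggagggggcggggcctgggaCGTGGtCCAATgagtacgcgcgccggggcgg
HERPUD1, an ER membrane protein that takes part in the removal of misfolded proteins, was the member with elements of both kinds.

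Levels were compared between genes per kilobase of the deposited gene length. Most members were abundant, and the lowest, DERL3, stood above 30.5% of the tested genes. ATF4 itself was the most abundant, at 254 CPM per kilobase over the 6 mice, above 99.3% of the tested genes. The ER calcium-binding chaperone CALR followed at 201 CPM per kilobase, then SHMT2, the mitochondrial serine hydroxymethyltransferase, at 136. HSPA5, the ER HSP70 chaperone also called BiP, stood at 110, the ubiquitin ligase SYVN1 at 108 and the ER HSP90 chaperone HSP90B1 at 89.8. At the low end, DERL3 stood at 0.692 CPM per kilobase, the cystine transporter SLC7A11 at 1.08 and asparagine synthetase ASNS at 1.38, followed by DNAJB9 at 3.98 and CHAC1, a glutathione-degrading enzyme, at 4.51. DDIT3 stood at 13.4 CPM per kilobase. Among neighbours in this order, the ranges over the 6 mice overlapped for ATF4 and CALR, for SHMT2 and HSPA5 and for HSPA5 and SYVN1, but not for CALR and SHMT2 or for SYVN1 and HSP90B1. Exons of SYVN1 share 398 bases with FAU on the same strand and those of ASNS share 1985 of 4455 bases with AC079781.5, so these levels are uncertain.

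**Figure D1:**
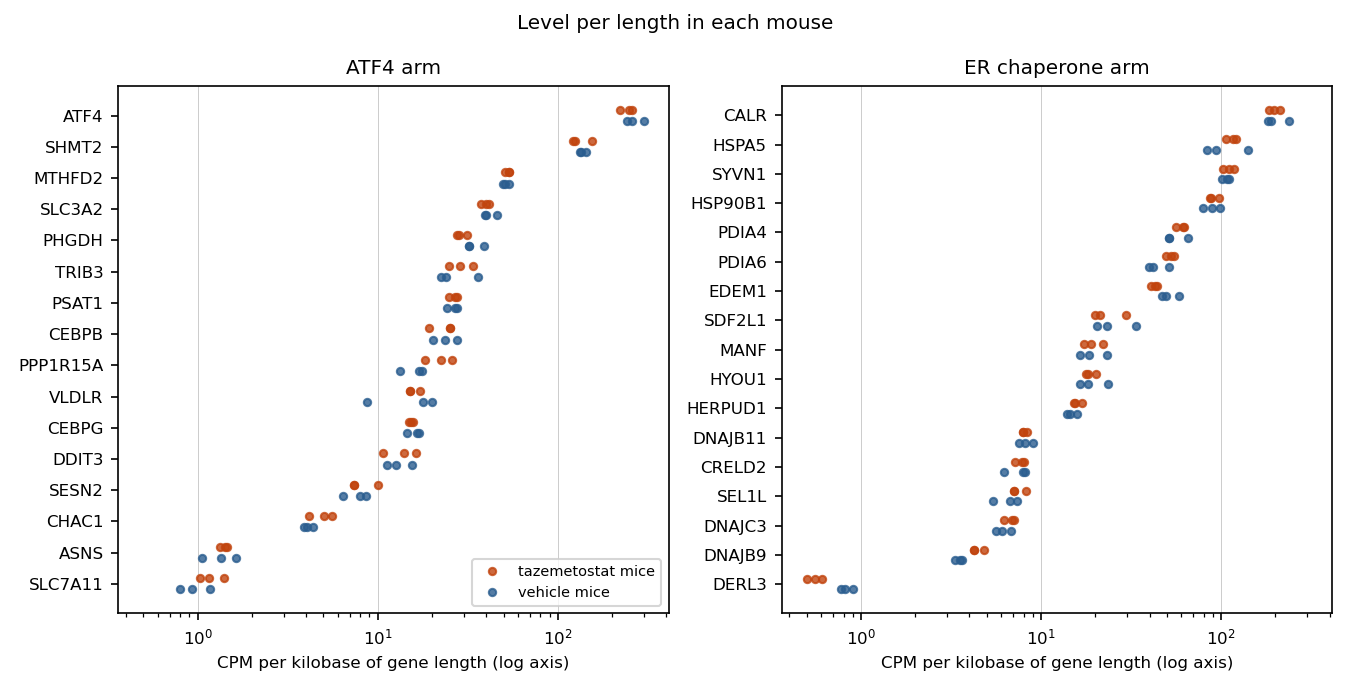
Level of each member in each mouse as CPM per kilobase of gene length (log axis), ATF4 arm on the left and ER chaperone arm on the right; each point is 1 mouse, tazemetostat above vehicle within a gene. ATF4 (254 CPM per kilobase on average) and CALR (201) lie highest, DERL3 (0.692) and SLC7A11 (1.08) lowest, and the points of the groups interleave for most genes.

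The comparison asked whether either stress arm differed in lymphoma cells whose host had received the EZH2 inhibitor before the CART19 cells. No member passed the threshold of adjusted p under 0.05 in edgeR's quasi-likelihood test over 20301 genes, where 7 genes did, 0.0345% of those tested. DESeq2 also called 0 of the 33 members. At an unadjusted p under 0.05 there were 2 members higher in tazemetostat mice (PPP1R15A and DNAJB9), where 3.34% of all tested genes were, and 3 lower (DERL3, EDEM1 and PHGDH), where 3.21% were. The same 5 genes were those whose 3 tazemetostat mice and 3 vehicle mice did not overlap, a pattern found higher in 6.58% and lower in 6.0% of all tested genes. The median log2 fold change was 0.03 over the ATF4 arm and 0.05 over the ER chaperone arm, beside -0.01 over all tested genes. It lay above 0 for 10 of 16 ATF4-arm members and 10 of 17 ER-arm members, against 48.1% of all tested genes. Leaving out library M_768_C left the counts past the threshold at 0 in both arms and put both medians at 0.02.

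The intervals come from the test over all genes, which draws each gene's variance toward the common trend. For a gene with a wide spread they can be narrower than its own mice would give. VLDLR, for example, counts as within 1.5-fold (log2 interval -0.51 to 0.55), though its vehicle mice ran from 81.4 to 188 CPM. The 95% interval of the fold change lay within 1.5-fold in either direction for 29 of the 33 members, against 11181 of the 20301 tested genes, and within 2-fold for all 33, against 15855. The 4 members whose interval reached past 1.5-fold were PPP1R15A, with a fold of 1.39 (1.12 to 1.72), SLC7A11, with 1.23 (0.948 to 1.59), DNAJB9, with 1.26 (1.06 to 1.505), and DERL3, with 0.667 (0.512 to 0.869). The median size of the log2 fold change was 0.08 over the members and 0.13 over all tested genes. Most members were abundant, and the tested genes were not matched to them for level. The part of level in these differences was not tested.

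**Figure D2:**
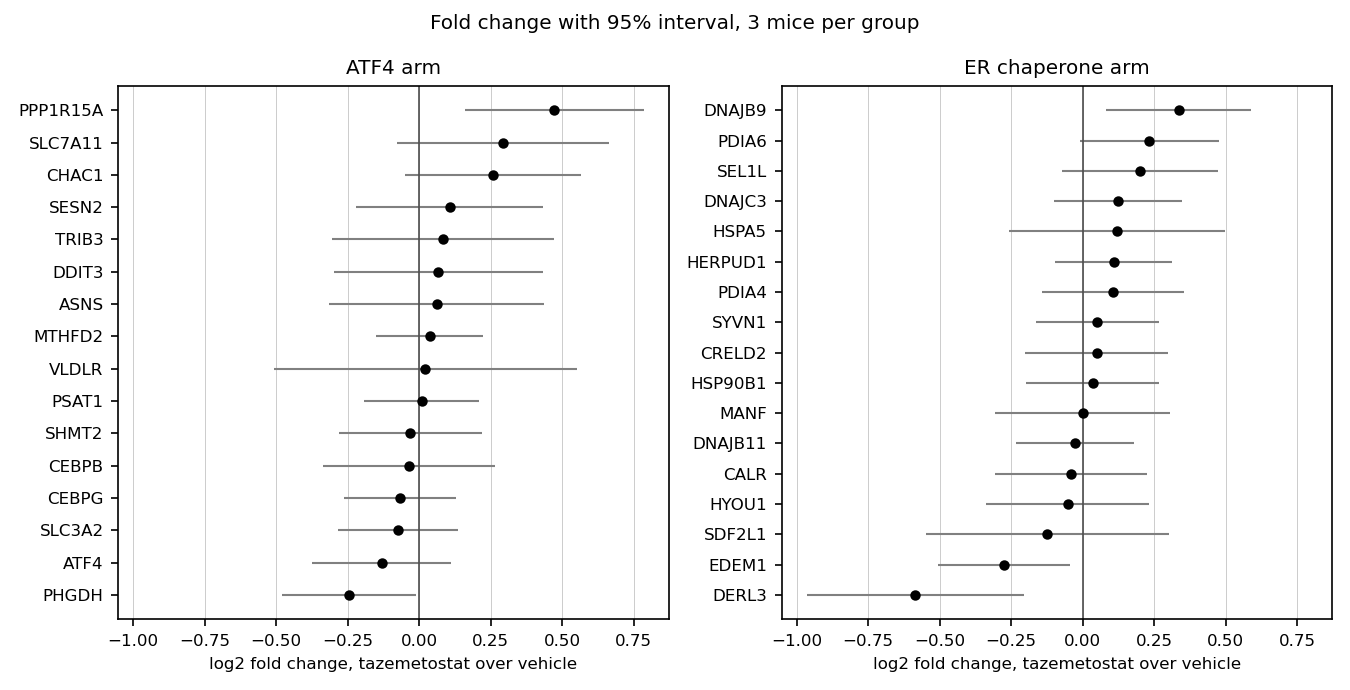
Log2 fold change of each member, tazemetostat over vehicle, with its 95% interval from edgeR (3 mice per group), ordered by size within each arm. PPP1R15A (0.47) and DNAJB9 (0.34) lie highest in their arms and DERL3 (-0.58) lowest; all intervals include 0 except those of the 5 members whose groups do not overlap.

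Within the ATF4 arm, PPP1R15A had the smallest p. It encodes GADD34, the phosphatase subunit that reverses the phosphorylation of eIF2 and so ends the response. PPP1R15A (chromosome 19, 48872392 to 48876057, plus strand, GENCODE release 29 on hg38) had 69.4, 79.7 and 56.8 CPM in the tazemetostat group (M_767, M_768, M_774), against 41.3, 54.7 and 52.4 CPM in vehicle mice M_766, M_769 and M_770. Every tazemetostat mouse was above every vehicle mouse, M_774 and M_769 lying closest. It averaged 68.7 ± 11.5 CPM in tazemetostat mice and 49.5 ± 7.16 CPM in vehicle mice (SD, n = 3 each, log2 fold change 0.47, SE 0.141, edgeR adjusted p = 0.487). In a limma fit of all 18 libraries, in which the mouse was a random effect, it was called, at a log2 fold change of 0.48 with an adjusted p of 0.0207, and in edgeR without the low-count filter as well (0.48, adjusted p = 0.0042). It was called too when that limma fit also held the library letter (0.48). The fit of 18 libraries called 256 genes in all, where limma-voom on mouse sums called 5 and not PPP1R15A. Likewise edgeR without the filter called 252 genes, where the filtered fit called 7, at nearly the same log2 fold change of PPP1R15A (0.48 against 0.47). The mouse received the treatment, so calls from libraries carry less weight than those from mouse sums. Over all 16 alternatives the log2 fold change of PPP1R15A ran between 0.35 and 0.59.

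Genes known to respond to tissue dissociation also lay higher in tazemetostat mice. The 22 tested genes of that list, immediate early genes and heat shock genes, had a median log2 fold change of 0.60, and 20 of them lay above 0, against 48.1% of all tested genes. At an unadjusted p under 0.05, 12 were higher in tazemetostat mice and 0 lower, against 3.34% and 3.21% of all tested genes. DUSP1, a phosphatase of MAP kinases, averaged 96.2 ± 12.1 CPM in tazemetostat mice and 49.5 ± 16.6 CPM in vehicle mice (SD, n = 3 each, log2 fold change 0.96, edgeR adjusted p = 0.303). The RNA-binding protein gene ZFP36, the immediate early gene IER3 and the HSP40 gene DNAJB1 had log2 fold changes of 0.54, 1.12 and 0.99, with no overlap of the groups. No gene of the list passed the threshold over all genes, the smallest edgeR adjusted p being 0.291. Their mean deviation of log2 CPM from the 6-mouse mean was 0.43, 0.49 and 0.05 in the tazemetostat group (M_767, M_768, M_774), against -0.76, -0.05 and -0.17 in vehicle mice M_766, M_769 and M_770. PPP1R15A and this list put the 6 mice in the same order, M_768 highest and M_766 lowest, a likeness seen after the values were known. The part of dissociation in the level of PPP1R15A was not tested.

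The transcription factors of the arm were close between the groups. ATF4 (chromosome 22, 39519695 to 39522685, plus strand) had 559, 647 and 626 CPM in tazemetostat mice, against 753, 647 and 606 CPM in vehicle mice. The groups overlapped, with vehicle mouse M_766 the highest. ATF4 averaged 611 ± 46.0 CPM in tazemetostat mice and 669 ± 75.7 CPM in vehicle mice (SD, n = 3 each, log2 fold change -0.13, 95% interval -0.38 to 0.11, edgeR adjusted p = 0.899). DDIT3, which encodes CHOP, had 14.1, 18.4 and 21.4 CPM in tazemetostat mice, against 20.2, 16.4 and 14.7 CPM in vehicle mice. These values interleaved fully, with a log2 fold change of 0.07 (95% interval -0.30 to 0.43, edgeR adjusted p = 0.977), or 0.0031 without library M_768_C. Exons of DDIT3 share 355 of 1307 bases with MARS on the opposite strand, which had 117248 summed counts against 6550 for DDIT3, so its level is uncertain if strand was ignored in counting. CEBPG and CEBPB, C/EBP family partners of ATF4, had log2 fold changes of -0.07 and -0.04, and CEBPB -0.11 without library M_768_C.

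Among the genes of serine and one-carbon metabolism, PHGDH stood apart from the rest. PHGDH, the first enzyme of serine synthesis (chromosome 1, 119648411 to 119744226, plus strand), had 253, 290.3 and 260.0 CPM in tazemetostat mice, against 357, 297 and 298 CPM in vehicle mice. All tazemetostat mice were below all vehicle mice, M_768 and M_769 lying closest. PHGDH averaged 268 ± 19.8 CPM in tazemetostat mice and 317 ± 34.4 CPM in vehicle mice (SD, n = 3 each, log2 fold change -0.25, SE 0.105, edgeR adjusted p = 0.730). Its next enzyme PSAT1 had a log2 fold change of 0.01 (-0.0053 without library M_768_C), SHMT2 one of -0.03 (-0.05 without it) and the mitochondrial folate enzyme MTHFD2 one of 0.04, so PHGDH was the only gene of this group whose mice did not overlap. Asparagine synthetase ASNS had a log2 fold change of 0.06.

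Amino acid transport and glutathione genes overlapped between the groups. SLC7A11, the cystine-glutamate exchanger, had 11.2, 9.88 and 13.4 CPM in tazemetostat mice, against 9.03, 11.4 and 7.73 CPM in vehicle mice. The groups overlapped through vehicle mouse M_769 (log2 fold change 0.29, 95% interval -0.08 to 0.67, edgeR adjusted p = 0.831). SLC3A2, the heavy chain shared by that exchanger and other transporters, had 195, 215 and 207 CPM in tazemetostat mice, against 239, 207 and 205 CPM in vehicle mice. Its log2 fold change was -0.07 (95% interval -0.28 to 0.14, edgeR adjusted p = 0.942), or -0.12 without library M_768_C. CHAC1 had 8.52, 10.3 and 11.5 CPM in tazemetostat mice, against 8.95, 8.35 and 8.02 CPM in vehicle mice. Only tazemetostat mouse M_767 fell among the vehicle values (log2 fold change 0.26, 95% interval -0.05 to 0.57, edgeR adjusted p = 0.816). Of the remaining members, the growth-pathway inhibitor SESN2 had a log2 fold change of 0.11, the pseudokinase TRIB3, which restrains ATF4 and CHOP, 0.08 (0.05 without library M_768_C), and the lipoprotein receptor VLDLR 0.02.

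In the ER chaperone arm, DERL3 and DNAJB9 had the smallest p, in opposite directions. DERL3 encodes Derlin-3, a membrane protein of ER-associated degradation that is induced through XBP1. DERL3 (chromosome 22, 23834503 to 23839128, minus strand) had 2.31, 1.89 and 2.10 CPM in tazemetostat mice, against 3.42, 3.10 and 2.93 CPM in vehicle mice. No mouse of either group crossed into the other. It averaged 2.10 ± 0.209 CPM in tazemetostat mice and 3.15 ± 0.249 CPM in vehicle mice (SD, n = 3 each, log2 fold change -0.58, SE 0.172, edgeR adjusted p = 0.478). It was the scarcest member, and 2923 of its 3796 exonic bases lie opposite SMARCB1, which had 133259 summed counts against 977 for DERL3, so its level is uncertain if strand was ignored in counting.

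DNAJB9, the ER co-chaperone ERdj4 that is induced through IRE1 and XBP1 and binds IRE1, lay the other way. DNAJB9 (chromosome 7, 108569568 to 108574850, plus strand) had 12.1, 13.7 and 12.0 CPM in tazemetostat mice, against 9.48, 10.1 and 10.4 CPM in vehicle mice. The groups did not overlap, with means of 12.6 ± 0.939 CPM in tazemetostat mice and 9.99 ± 0.460 CPM in vehicle mice (SD, n = 3 each, log2 fold change 0.34, SE 0.115, edgeR adjusted p = 0.589). EDEM1, a mannosidase-like protein that hands misfolded glycoproteins to degradation (chromosome 3, 5187646 to 5219957, plus strand), had 289.6, 297 and 275 CPM in tazemetostat mice, against 315, 396 and 332 CPM in vehicle mice. All tazemetostat mice were below all vehicle mice, of which M_769 was the highest. EDEM1 averaged 287 ± 11.1 CPM in tazemetostat mice and 348 ± 42.6 CPM in vehicle mice (SD, n = 3 each, log2 fold change -0.28, SE 0.105, edgeR adjusted p = 0.666). The limma fit of 18 libraries called it (log2 fold change -0.27, adjusted p = 0.0397), and the same fit with the library letter did not. Limma-voom on mouse sums did not call it either (adjusted p = 0.665).

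Folding enzymes and the other degradation genes of the arm overlapped between the groups. PDIA6, a protein disulfide isomerase, had 223, 217 and 201 CPM in tazemetostat mice, against 164, 171 and 211 CPM in vehicle mice, of which M_770 fell among the tazemetostat values. Its log2 fold change was 0.23 (95% interval -0.01 to 0.48, edgeR adjusted p = 0.767). SEL1L, the adaptor of the SYVN1 ubiquitin ligase, had 79.1, 67.3 and 67.9 CPM in tazemetostat mice, against 51.4, 64.6 and 70.5 CPM in vehicle mice. The log2 fold change of SEL1L was 0.20 (95% interval -0.07 to 0.48, edgeR adjusted p = 0.845) and that of SYVN1 0.05. DNAJC3, the ER co-chaperone p58IPK, had 39.3, 34.7 and 38.6 CPM in tazemetostat mice, against 31.4, 33.9 and 38.1 CPM in vehicle mice. Here too vehicle mouse M_770 lay among the tazemetostat mice (log2 fold change 0.12, 95% interval -0.10 to 0.35, edgeR adjusted p = 0.895).

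The major chaperones varied more among the vehicle mice than between the groups. HSPA5 (chromosome 9, 125234853 to 125241330, minus strand) had 475, 456 and 417 CPM in tazemetostat mice, against 324, 366 and 549 CPM in vehicle mice. The vehicle mice held both the lowest and the highest values, and the tazemetostat mice lay between them. HSPA5 averaged 449 ± 29.7 CPM in tazemetostat mice and 413 ± 119.7 CPM in vehicle mice (SD, n = 3 each, log2 fold change 0.12, 95% interval -0.26 to 0.50, edgeR adjusted p = 0.948). Without vehicle mouse M_770 its log2 fold change was 0.39 and without vehicle mouse M_766 it was -0.02, neither called. The other chaperones and their helpers had log2 fold changes from -0.12 for SDF2L1, a stress-inducible ER protein, to 0.11 for PDIA4, a disulfide isomerase, and HERPUD1. Between them lay CRELD2 with 0.05, HSP90B1 with 0.04, MANF with -0.00, the co-chaperone DNAJB11 with -0.03, CALR with -0.04 and the HSP70-like HYOU1 with -0.05. Several of these rest on library M_768_C. Without it SDF2L1 was at -0.26, MANF at -0.08, DNAJB11 at -0.04, HYOU1 at -0.02, CRELD2 at -0.0097 and HSP90B1 at 0.02, none called.

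**Figure D3:**
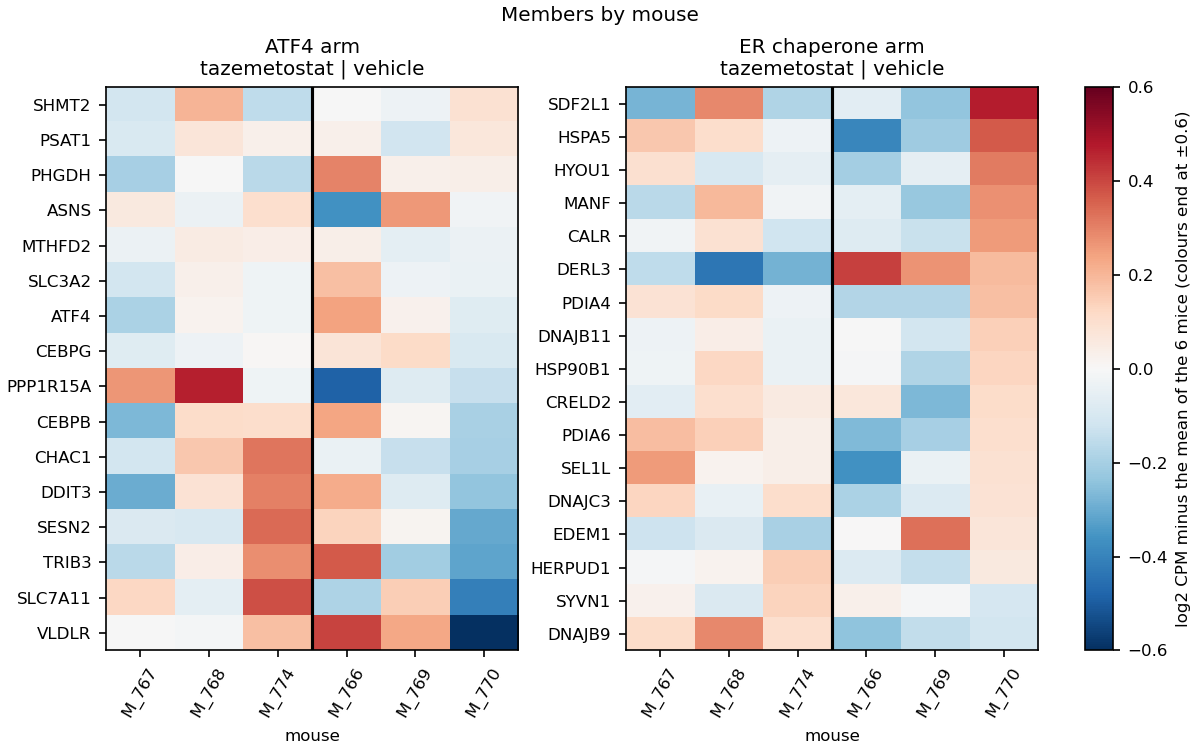
Deviation of log2 CPM from the 6-mouse mean for each member (rows) in each mouse (columns, tazemetostat left of the line and vehicle right of it), ordered by the value in vehicle mouse M_770; red is above the mean, blue below, and colours end at ±0.6. In M_770 most ER chaperone genes are red and most ATF4-arm genes blue, the 2 arms parting within 1 vehicle mouse.

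Among mice, the arms did not move together, a pattern described after the values were seen and given no test. In vehicle mouse M_770, 9 of the 17 ER-arm genes had their highest level of the 6 mice (HSPA5, HSP90B1, CALR, PDIA4, HYOU1, SDF2L1, CRELD2, DNAJB11 and MANF), against 17.5% of all tested genes. In the same mouse 0 of the 16 ATF4-arm genes were highest and 6 were lowest (TRIB3, CHAC1, SLC7A11, SESN2, CEBPG and VLDLR), against 18.7% of all tested genes that were lowest there. Vehicle mouse M_766 was often at an extreme, being highest for 26.9% and lowest for 27.5% of all tested genes. Of the 16 ATF4-arm genes, 6 were highest there (ATF4, PHGDH, SLC3A2, TRIB3, CEBPB and VLDLR) and 2 lowest (PPP1R15A and ASNS). Of the 17 ER-arm genes, 7 were lowest there and 1 highest. In vehicle mouse M_769, 6 of 17 ER-arm genes were at their lowest, against 11.7% of all tested genes, and 1 was at its highest, against 14.5%. VLDLR had 142, 141 and 161 CPM in tazemetostat mice, against 188, 167 and 81.4 CPM in vehicle mice, the widest gap of the arm. TRIB3 had 85.5, 98.2 and 116 CPM in tazemetostat mice, against 123, 82.7 and 76.8 CPM in vehicle mice.

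The mean deviation of log2 CPM over the 16 ATF4-arm genes was -0.08, 0.06 and 0.11 in the tazemetostat group (M_767, M_768, M_774), against 0.07, 0.01 and -0.17 in vehicle mice M_766, M_769 and M_770. Over the 17 ER-arm genes it was 0.01, 0.05 and -0.02 in tazemetostat mice, against -0.09, -0.09 and 0.16 in vehicle mice. The vehicle mice thus lay at the ends of the ER arm and the tazemetostat mice between them. Hypoxia genes, 17 in all, had a mean deviation of -0.05, 0.40 and 0.02 in tazemetostat mice, against -0.25, -0.20 and 0.08 in vehicle mice, so that M_770 was the highest vehicle mouse there too, though below tazemetostat mouse M_768. The tRNA synthetases (0.06), T-cell markers (0.12, from 4 tested genes) and myeloid markers (0.19, from 2 tested genes) had their highest mean deviation in M_770. TRAC and PRF1 were highest there, but CD247 had 43.2 CPM, below every tazemetostat mouse (45.9 to 53.6 CPM). The plasma-cell markers had their lowest mean deviation in M_770 (-0.12). SDC1 (14.0 CPM) and TNFRSF17 (7.15 CPM) were lowest there, while JCHAIN (118 CPM) was highest. The 39 other genes of ER folding and degradation were at 0.03, 0.07 and 0.02 in tazemetostat mice, against -0.06, -0.07 and 0.01 in vehicle mice, with 5 of 39 highest in M_770, so that M_770 did not stand out in that list as it did in the ER arm. The part of these lists in the levels of the arms was not tested.

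Spread between mice was described for each gene as the SD of log2 CPM. The median SD over the ER arm was 0.10 in tazemetostat mice and 0.19 in vehicle mice. Over the ATF4 arm it was 0.15 in tazemetostat mice and 0.19 in vehicle mice. Vehicle mice varied more for 14 of 17 ER-arm genes and 10 of 16 ATF4-arm genes, against 65.9% of all tested genes. HSPA5 had an SD of 0.10 in tazemetostat mice and 0.40 in vehicle mice, and VLDLR 0.11 in tazemetostat mice and 0.65 in vehicle mice.

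**Figure D4:**
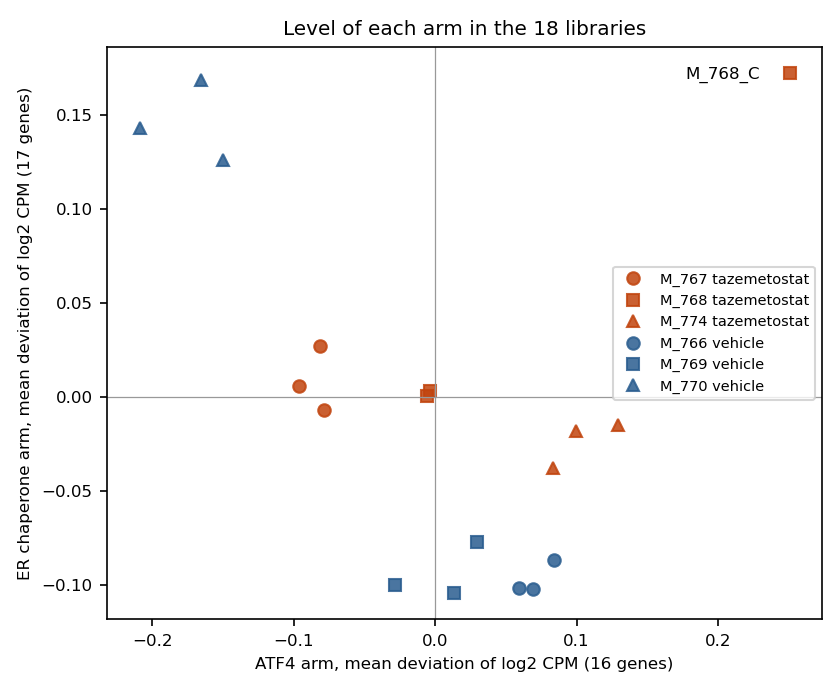
Mean deviation of log2 CPM over the 16 ATF4-arm genes (horizontal) and the 17 ER-arm genes (vertical) in each of the 18 libraries, tazemetostat in orange and vehicle in blue, 1 shape per mouse. Libraries of a mouse lie together except M_768_C (0.25 and 0.17), and the 3 libraries of vehicle mouse M_770 sit alone at the upper left.

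Libraries of the same mouse were close for these genes. The median SD between libraries of a mouse was 0.10 over the ATF4 arm and 0.07 over the ER arm, against 0.21 over all tested genes. Without the libraries of M_768 it was 0.06 in both arms and 0.16 over all tested genes. Here too the tested genes were not matched to the members for level. HSPA5 had 481, 459 and 479 CPM in the libraries of tazemetostat mouse M_767 and 549, 547 and 539 CPM in those of vehicle mouse M_770. The mean deviation of the ATF4 arm was 0.25 in M_768_C and -0.00 and -0.01 in M_768_A and M_768_B, and that of the ER arm 0.17 in M_768_C and 0.00 in both others. Without M_768_C the log2 fold change was 0.44 for PPP1R15A, -0.28 for PHGDH, -0.17 for ATF4, -0.60 for DERL3, 0.33 for DNAJB9 and -0.26 for EDEM1, none called.

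Beyond the members, the sensors and transducers of both responses gave no call either. Of 19 tested, 13 had a log2 fold change above 0, against 48.1% of all tested genes. The median of the 19 was 0.02 and their smallest edgeR adjusted p 0.591. XBP1 had 128, 159 and 148 CPM in tazemetostat mice, against 107, 104 and 132 CPM in vehicle mice. Vehicle mouse M_770 reached into the tazemetostat range (log2 fold change 0.35, edgeR adjusted p = 0.591), and splicing of XBP1 cannot be read from gene counts. EIF2AK2, an interferon-induced kinase, averaged 111 ± 12.6 CPM in tazemetostat mice and 84.9 ± 14.3 CPM in vehicle mice (SD, n = 3 each), with no overlap (log2 fold change 0.39, edgeR adjusted p = 0.609). The PERK gene EIF2AK3 had a log2 fold change of 0.01, EIF2AK4 0.02, ERN1 0.14, ATF6 0.16 and its relative ATF6B -0.14. EIF2S1, the phosphorylated subunit of eIF2, had 0.14. The groups did not overlap for ATF6, higher in tazemetostat mice, and for ATF6B, lower in them.

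Among other known ATF4 targets, ATF3 and CDKN1A had larger differences than any member, though neither passed the threshold. Of 30 listed, 26 were tested and NUPR1, FGF21, STC2 and GDF15 were not. Their median log2 fold change was -0.02, with 11 of 26 above 0, against 48.1% of all tested genes. At an unadjusted p under 0.05, 4 were higher in tazemetostat mice, against 3.34% of all tested genes, and 0 lower. ATF3, a stress-induced transcription factor, had 24.3, 23.8 and 26.1 CPM in tazemetostat mice, against 14.7, 14.7 and 10.8 CPM in vehicle mice (log2 fold change 0.88, edgeR adjusted p = 0.108). The groups stood well apart, and the gene was the nearest to the threshold of any list here. The cell-cycle inhibitor CDKN1A had a log2 fold change of 0.72 (edgeR adjusted p = 0.370), the thioredoxin inhibitor TXNIP 0.55 (adjusted p = 0.321) and the mTOR inhibitor DDIT4 0.49 (adjusted p = 0.360). Each of these 4 genes was higher in all 3 tazemetostat mice than in any vehicle mouse, as were 5 of the 26 in all, against 6.58% of all tested genes. The part of ATF4, or of any other regulator, in the levels of these 4 genes was not tested.

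Transfer RNA synthetases, many of which ATF4 induces, had a median log2 fold change of -0.06 over 13 genes. Of these, 4 lay above 0, against 48.1% of all tested genes. WARS, the tryptophan enzyme that interferon also induces, had 691, 607 and 551 CPM in tazemetostat mice, against 274, 335 and 470.3 CPM in vehicle mice (log2 fold change 0.78, edgeR adjusted p = 0.323). AARS lay the other way without overlap, with 145 ± 4.98 CPM in tazemetostat mice and 173 ± 8.65 CPM in vehicle mice (SD, n = 3 each, log2 fold change -0.26, edgeR adjusted p = 0.581). MARS and IARS had -0.15 and -0.14, MARS without overlap of the groups. In all, 2 of the 13 were higher and 3 lower without overlap, against 6.58% and 6.0% of all tested genes.

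Of 40 other genes of ER folding and degradation, 39 were tested, WFS1 not among them, and 34 had a log2 fold change above 0, against 48.1% of all tested genes, with a median of 0.10. At an unadjusted p under 0.05, 3 were higher, against 3.34% of all tested genes, and 0 lower. The groups did not overlap for 9 higher and 1 lower, against 6.58% and 6.0% of all tested genes. SSR3, a subunit of the translocon-associated complex, averaged 116 ± 1.17 CPM in tazemetostat mice and 100.5 ± 2.69 CPM in vehicle mice (SD, n = 3 each, log2 fold change 0.21, edgeR adjusted p = 0.668). ERP44, which retains client proteins, had a log2 fold change of 0.22, the mannosidase EDEM3 0.29 and Derlin-1 (DERL1) 0.17, each without overlap of the groups. EDEM3 thus lay on the other side of 0 from EDEM1, and DERL1 from DERL3. None of the 4 passed the threshold, with edgeR adjusted p from 0.668 to 0.774. In library M_768_C the mean deviation of this list was 0.16, against 0.04 in both M_768_A and M_768_B.

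Hypoxia genes were measured beside these because low oxygen also engages PERK. Of 17, 14 had a log2 fold change above 0, against 48.1% of all tested genes, with a median of 0.17. At an unadjusted p under 0.05, 5 were higher, against 3.34% of all tested genes, and 0 lower (smallest edgeR adjusted p 0.445). Tazemetostat mouse M_768 had the highest level of 14 of the 17 genes. The mean deviation of log2 CPM over the list was 0.40 in M_768, -0.05 in M_767 and 0.02 in M_774. Vehicle mouse M_770 (0.08) lay above M_767 and M_774, so the groups overlapped for the list. Vehicle mice M_766 (-0.25) and M_769 (-0.20) lay below all tazemetostat mice. ADM, the gene of the peptide adrenomedullin, had 57.0, 94.9 and 44.7 CPM in tazemetostat mice, against 17.4, 32.7 and 39.4 CPM in vehicle mice. Tazemetostat mouse M_768 was the highest, and the groups did not overlap. P4HA1, VEGFA and P4HA2 had log2 fold changes of 0.41, 0.39 and 0.23.

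**Figure D5:**
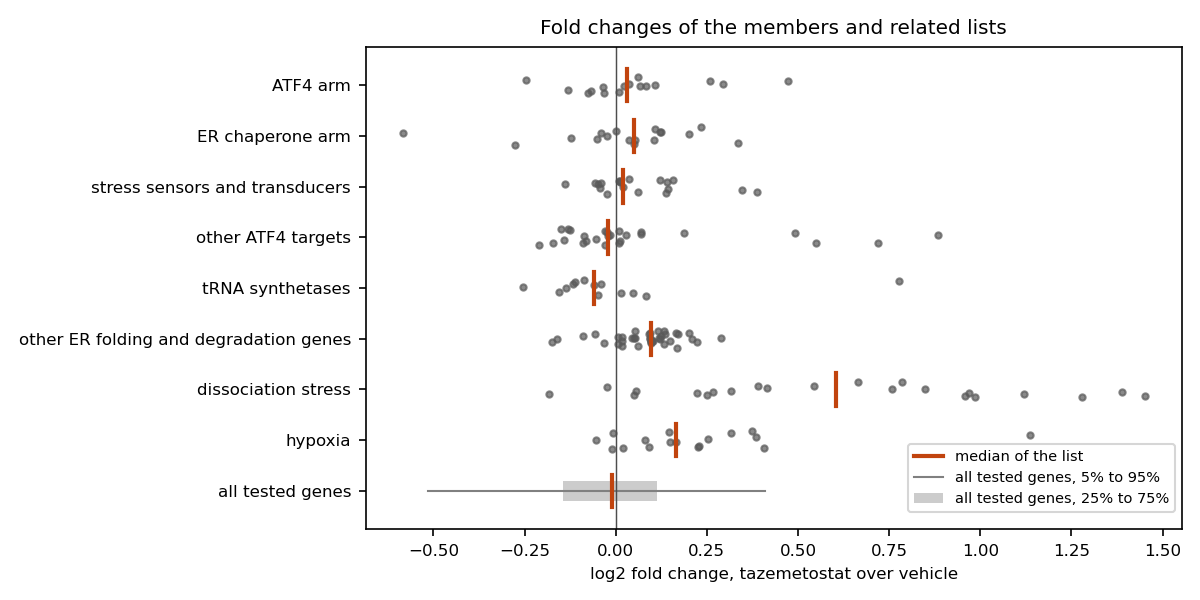
Log2 fold changes, tazemetostat over vehicle, of the members of each arm and of the related lists; each point is 1 tested gene, the orange bar is the median of the list, and the grey bar and line give the middle and outer ranges of all tested genes. The arms (medians 0.03 and 0.05) sit at the centre of all genes (-0.01), while the dissociation list (0.60) lies to the right.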

How the data were processed

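Total RNA of sorted OCI-Ly18 cells was sequenced from libraries of the NEB NEXT Ultra II kit, per the labels' protocols. The authors deposited raw, unscaled read counts of 58735 genes and 18 libraries, per the file headers. The submitters' processing notes name hg38 and DESeq2; no source used here gives the aligner, counter or strand setting, so genes whose exons overlap are uncertain. All 58735 gene IDs had the same start and end in GENCODE release 29. Gene lengths were deposited beside the counts.

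Libraries held 16124494 to 26336269 counts and were summed per mouse. The mouse received the treatment, so the mouse was the unit of the test, with 3 mice per group bearing 1 cell line. The quasi-likelihood test draws each gene's variance toward the trend over all tested genes. Its p-values and intervals thus do not rest on the spread of a gene's own mice alone. The library letters did not pair samples: across genes, library deviations within mice correlated at -0.0041 on average over 45 pairs with the same letter and at 0.0021 over 90 pairs with different letters. The sums were tested by quasi-likelihood in edgeR 4.0.16 (R 4.3.3) after TMM scaling and filterByExpr at a minimum count of 10, with Benjamini-Hochberg adjustment over 20301 genes and a threshold of 0.05. The genes removed held 0.0602% of counts, and the biological coefficient of variation was 0.14. The SE of a log2 fold change is its size over the root of the F statistic. Deviations used log2 CPM with a prior count of 2. The steps were tested on simulated data. Alternatives used DESeq2 1.42.0 and limma 3.58.1.

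The 33 members and all lists were chosen with earlier results of these data known. Values in every mouse are given for ATF4, DDIT3, HSPA5 and the 6 members of each arm with the smallest p, and of each related list the 4 genes with the smallest p and the main sensors are named. VLDLR, TRIB3 and the mouse pattern were added after values were seen. Motifs were searched in RefSeq windows on GRCh38.p14. A planned description of protein ends was not run, as protein sequences were not used here.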

Additional observations from a re-analysis of the deposited data

Results flagged for a closer look

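In the tazemetostat group, 9 of the 33 members had 1 of the 9 libraries far from the rest, and in each case it was M_768_C with the highest value. PHGDH had 355 CPM there, against 249 to 280.1 CPM in the other libraries of the group, ATF4 805 against 554 to 626 CPM, SLC3A2 275 against 188 to 215 CPM, and CEBPB 69.2 against 37.3 to 52.7 CPM. In the ER chaperone arm SDF2L1 had 52.3 CPM there, against 20.1 to 26.5 CPM, CRELD2 56.2 against 35.7 to 41.0 CPM, HSP90B1 522 against 403 to 449 CPM, DNAJB11 52.6 against 43.9 to 47.7 CPM, and MANF 74.7 against 38.0 to 46.9 CPM. Over all tested genes 23.7% had such a library in the tazemetostat group, 20.7% with M_768_C as the one apart, so the members' share was not far from that of all genes. In the vehicle group 0 of the 33 members and 4.07% of all tested genes had such a library. Chance alone gives such a library in about 1 in 20 groups of independent samples, and libraries of a mouse are not independent. The cause was not tested. With M_768_C left out of its mouse sum, 31 of the 33 log2 fold changes kept their sign.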

How the results depend on the processing

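No member was called by edgeR with other scaling factors, the filter of 1 CPM in 3 mice or robust dispersion, by limma-voom on mouse sums, by DESeq2, without library M_768_C, or without any 1 mouse. The ATF4 arm had 1 call (PPP1R15A) without a low-count filter, in the limma fit of 18 libraries (mouse as random effect), and in that fit with the library letter as a replicate block. The ER arm had 1 call (EDEM1) in the fit of 18 libraries and 0 with the block. Over all genes, 7 were called, against 5 with limma-voom on mouse sums. There were 252 calls without a filter, 119 with DESeq2, 256 with 18 libraries and 224 with the replicate block. The letters did not pair the samples. Leaving out 1 mouse gave 0 to 59 calls over all genes (59 without M_770, 26 without M_766, 1 without M_767, 0 without M_768, M_769 or M_774). The arm medians moved by less than the spread between mice, from -0.037 to 0.083 for the ATF4 arm and from -0.039 to 0.124 for the ER arm. Of 33 members, 15 kept their direction in all 16 alternatives, and 42 of 528 values reversed; the cause was not tested. MANF was 0.0028 with median-of-ratios factors, 0.010 without a filter, 0.0073 with DESeq2, 0.0085 with limma-voom, 0.0079 with 18 libraries and 0.015 with the replicate block. PSAT1 was -0.024 and VLDLR -0.016 with upper-quartile factors, and without M_768_C PSAT1 was -0.0053 and CRELD2 -0.0097. With 1 mouse left out, log2 fold changes reached both signs for 18 members: SLC3A2 (-0.11 to 0.011), ASNS (-0.076 to 0.23), CEBPB (-0.13 to 0.091), HSPA5 (-0.016 to 0.39), TRIB3 (-0.041 to 0.34), PSAT1 (-0.041 to 0.056), CRELD2 (-0.058 to 0.12), HSP90B1 (-0.039 to 0.12), SESN2 (-0.049 to 0.21), DDIT3 (-0.072 to 0.22), SHMT2 (-0.15 to 0.036), VLDLR (-0.26 to 0.26), SDF2L1 (-0.31 to 0.12), HYOU1 (-0.15 to 0.11), CALR (-0.11 to 0.096), DNAJB11 (-0.082 to 0.048), MANF (-0.10 to 0.16) and SYVN1 (-0.00083 to 0.11). The scarcest member, DERL3, averaged 2.63 CPM over the 6 mice, and counting error weighs most there.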
